A study of Mus musculus with 8 samples.

Results

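The collagen gene family of the mouse was followed in 8 EMT6 mammary tumours. Its members were the protein-coding genes whose symbol is Col, a type number, the letter a and a chain number, and the rule used no measured value. There were 44 such genes among 26709 genes measured, of which 16694 were protein-coding. They fell into 11 fibrillar genes, 6 basement membrane genes of type IV collagen, 9 genes of the fibril-associated collagens with interrupted helices (FACIT) and 18 others. All 8 tumours grew in Balb/c mice, the strain from which the EMT6 mammary carcinoma line comes, and all carry the genotype label WT. The 4 GrB-Fc-KS49 tumours are labelled with granzyme B treatment, and the series title describes this agent as a human fusion protein that holds granzyme B and targets the membrane protein EMP2. The 4 IgG tumours are the controls. Treatment was given 3 times in 10 days. Ages, sex and doses were not used here. The model is 1 tumour cell line in a host whose fibroblasts, vessels, fat, muscle and skin are its own, so a tumour library mixes transcripts of both. In such bulk RNA, fewer cells of a type and less RNA per cell cannot be told apart. Each library title carries a different number, but the labels do not explain it or say whether the tumours came from different animals. The p-values therefore weigh the difference between groups against the spread among tumours of a group, which may or may not be separate animals.

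Collagens are the main structural proteins of the extracellular matrix. Each collagen molecule is built from alpha chains that wind around each other, and the winding needs glycine at regular steps of the chain. Fibrillar collagens form the banded fibres of stroma, type IV collagen forms the sheet under epithelium and around vessels, and FACIT collagens sit on the surface of fibres. In mammary tumours most fibrillar collagen is made by fibroblasts, and its amount and alignment are known to affect tumour stiffness and the entry of immune cells.

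The glycine repeat can be read in the genes themselves. In the longest GENCODE M21 transcript of each member, the longest stretch with a glycine codon (GGN) at every step of 3 codons ran for 216 to 344 repeats in the 11 fibrillar genes and for 39 to 66 repeats in the 6 type IV genes. Fibrillar genes had 21 to 33 coding exons of exactly 54 bases, which is 6 repeats, and type IV genes had 1 to 3. An exon of this kind from each of 3 fibrillar genes is printed here, because such exons recur in all 11 fibrillar genes. Each is read on the plus strand of GRCm38, and capitals mark the glycine codons at each step of 3. They lie at chr6:4515481-4515534 (Col1a2, exon 8), chr1:45325360-45325413 (Col3a1, exon 6) and chr2:27965251-27965304 (Col5a1, exon 15).
Col1a2: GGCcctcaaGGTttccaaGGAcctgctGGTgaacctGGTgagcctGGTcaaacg
Col3a1: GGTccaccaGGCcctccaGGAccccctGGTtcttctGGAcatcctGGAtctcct
Col5a1: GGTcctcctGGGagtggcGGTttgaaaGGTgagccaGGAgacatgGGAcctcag
The codons between the capitals differ from gene to gene, while the glycine codons in capitals keep the same 6 places. Col5a1 has a further glycine codon between these steps, ggc, in lower case.

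Libraries held 74 to 82.6 M estimated counts (M, 1000000). Levels are given as CPM, counts per 1000000 with library sizes scaled by TMM (edgeR's trimmed mean), in tumours 1 to 4 of each group in that order, and means carry the SD over 4 tumours. The cell type label names epithelial breast tumour cells. The epithelial markers Krt8 and Krt18, keratins of simple epithelium, were present in all libraries, and the summed CPM of 6 epithelial markers was 724, 808, 472 and 593 in GrB-Fc-KS49 tumours, against 531, 521.4, 563 and 479.7 in IgG tumours. The titles of GrB-Fc-KS49 tumour 3 and IgG tumour 1 end in U, a letter the labels do not explain. Markers of fibroblasts, pericytes, vessels and leukocytes were present beside them. GrB-Fc-KS49 tumour 1 stood apart by skeletal muscle markers (summed CPM 2225, against 37.8 to 361 in the other GrB-Fc-KS49 tumours and 38.8 to 188 in IgG tumours). GrB-Fc-KS49 tumour 2 stood apart by epidermal markers (2069.8, against 10.6 to 21.9 in the other GrB-Fc-KS49 tumours and 8.56 to 18.1 in IgG tumours), and tumour 3 by adipocyte markers (459.7, against 67.8 to 147 in the other GrB-Fc-KS49 tumours and 47.7 to 87.5 in IgG tumours).

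No collagen gene passed the test between GrB-Fc-KS49 and IgG tumours. Of the 44 members, 35 passed the filter on low counts and were tested, and 0 had an adjusted p under 0.05 by edgeR's quasi-likelihood test with Benjamini-Hochberg adjustment over 19718 genes, where the background was also 0 genes (0%). At an unadjusted p under 0.05, 1 of 35 was called, the FACIT chain Col9a3 with a higher mean in GrB-Fc-KS49 tumours, against 35.1% of all genes tested, of which 17.3% were higher and 17.8% lower. DESeq2 called 4708 genes (23.9%) at an adjusted p under 0.05, and 0 of them were collagens. The same threshold was passed by 0.00507% of genes in limma-voom and by 6.43% in limma-voom with sample weights, and in edgeR by 6.32% without GrB-Fc-KS49 tumour 1 and by 17.1% without GrB-Fc-KS49 tumour 4, with 0 collagens in each. At an adjusted p under 0.10 edgeR called 25.1% of genes and 0 collagens. In 0 of 35 members did all GrB-Fc-KS49 tumours lie on 1 side of all IgG tumours, against 25.7% of all genes tested. The median log2 fold change of GrB-Fc-KS49 over IgG was -0.02 over the 35 members and 0.03 over all genes tested, and 16 members had a higher and 19 a lower mean in GrB-Fc-KS49 tumours. With upper quartile scaling both medians moved up, to 0.04 over the members and 0.09 over all genes tested. The spread between tumours of 1 group was wide for collagens. Their median SD of log2 CPM was 0.59 in GrB-Fc-KS49 tumours and 0.35 in IgG tumours, while over all genes tested it was 0.25 in GrB-Fc-KS49 tumours and 0.14 in IgG tumours. The median standard error of the log2 fold change was 0.33 for collagens and 0.17 for all genes, so a difference had to be larger in a collagen gene to be called. With 1 library left out the count at an unadjusted p under 0.05 was 0 to 5, with 0 without IgG tumour 1, 2 without GrB-Fc-KS49 tumour 2, 3 without IgG tumour 4, 4 without GrB-Fc-KS49 tumour 4 and 5 without GrB-Fc-KS49 tumour 3, where 36.7% of all genes were called.

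**Figure D1:**
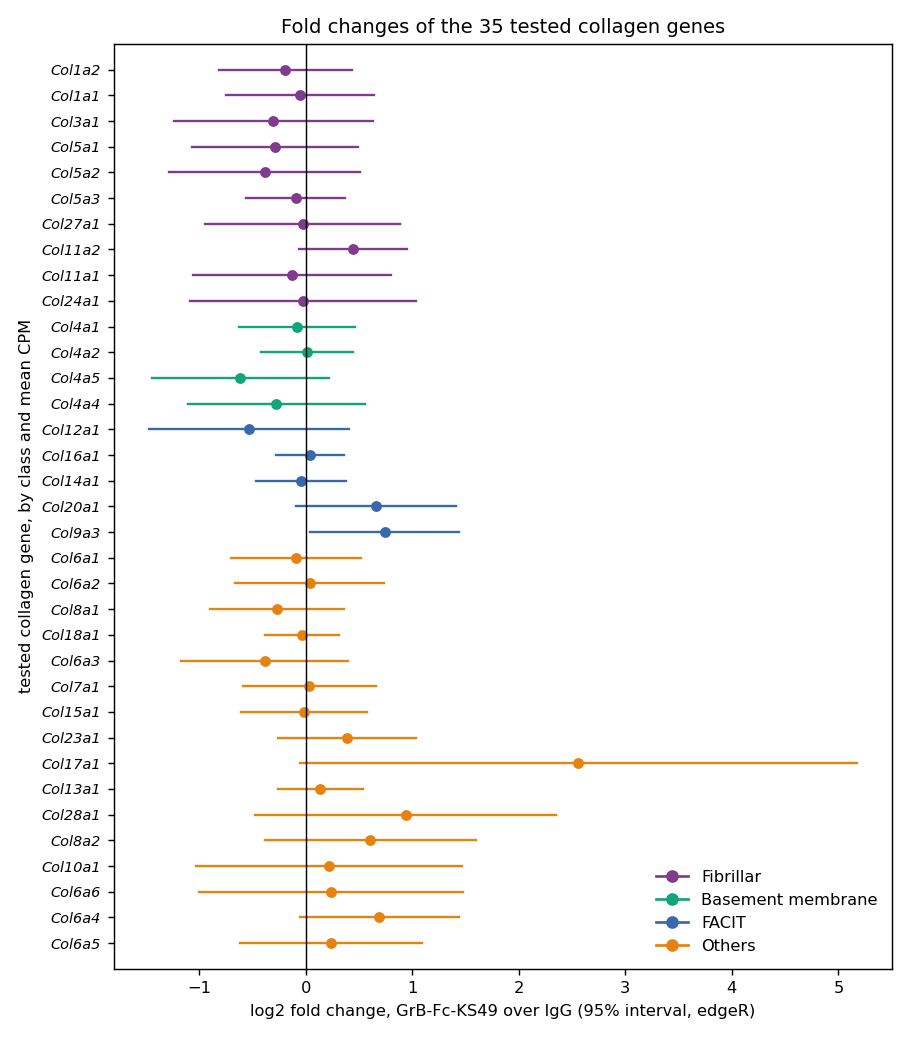
Log2 fold change of GrB-Fc-KS49 over IgG tumours (x axis) with its 95% interval from edgeR for the 35 tested collagen genes (rows, coloured by class and ordered by mean CPM within it). All intervals but that of Col9a3 cross 0, and Col17a1 has the widest, from -0.06 to 5.17.

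Collagen transcripts made up 0.858% to 2.23% of the TMM-scaled library size in GrB-Fc-KS49 tumours and 1.203% to 1.99% in IgG tumours. Summed over the 44 genes they reached 8584, 10806, 22262 and 16143 CPM in GrB-Fc-KS49 tumours, against 19909, 16907, 12035 and 16306 CPM in IgG tumours. The lowest and the highest tumour of all 8 were both GrB-Fc-KS49 tumours, and the IgG tumours lay between them. Group means were 14449 ± 6099 CPM in GrB-Fc-KS49 tumours, with 16289 ± 3245 CPM in IgG tumours (SD, n = 4 each), a ratio of 0.887. Without GrB-Fc-KS49 tumour 3 that ratio was 0.727, and without GrB-Fc-KS49 tumour 1 it was 1.01. Fibrillar genes held 74.03% to 78.4% of the sum in GrB-Fc-KS49 tumours and 75.9% to 77.8% in IgG tumours. The 3 most abundant genes alone, Col1a2, Col1a1 and Col3a1, held 69.1% to 73.6% in GrB-Fc-KS49 tumours and 70.8% to 72.0% in IgG tumours. The FACIT share was 5.60% to 7.25% in GrB-Fc-KS49 tumours and 6.51% to 7.80% in IgG tumours, and the type IV share was 2.46% to 4.25% in GrB-Fc-KS49 tumours and 2.58% to 3.07% in IgG tumours. By class the ratio of group means was 0.885 for fibrillar, 0.940 for type IV, 0.777 for FACIT and 0.9497 for the other genes, each with overlapping groups.

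**Figure D2:**
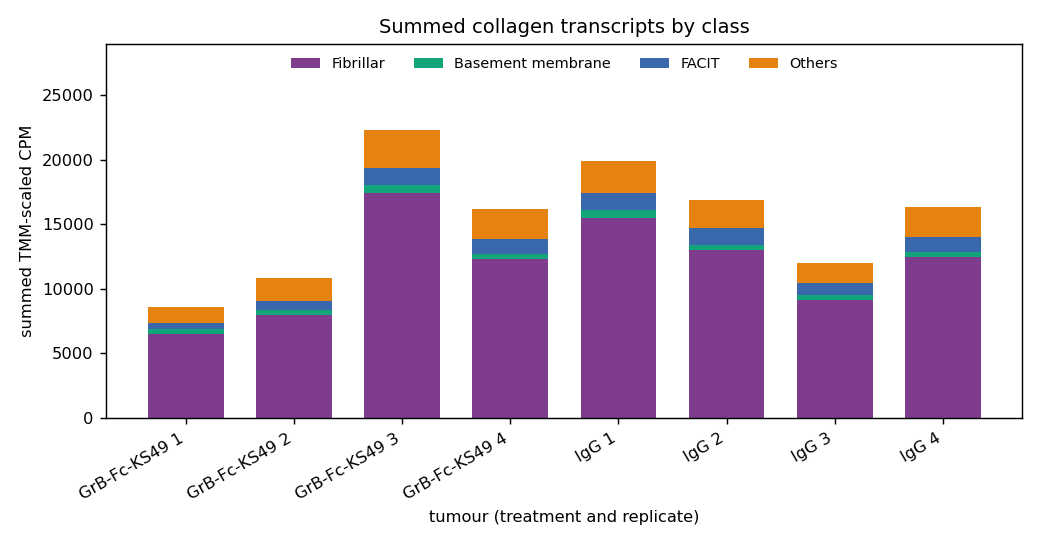
Summed TMM-scaled CPM of the collagen genes (y axis) in each tumour (x axis), stacked by class. GrB-Fc-KS49 tumours reach from 8584 to 22262 CPM and IgG tumours from 12035 to 19909 CPM, with most of each bar from fibrillar genes.

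The order of the tumours was shared by most abundant members. Of the 21 genes with a mean of at least 5 CPM, GrB-Fc-KS49 tumour 1 was the lowest of all 8 in 13, and GrB-Fc-KS49 tumour 3 was the highest in 11. Within the GrB-Fc-KS49 tumours, tumour 3 was the highest in 17 of 21, and tumour 1 or 2 was the lowest in 19. Within the IgG tumours, tumour 1 was the highest in 16 and tumour 3 the lowest in 19. The highest tumour was 2.56 times the lowest in the median gene. Both tumours that were mostly the highest of their group, GrB-Fc-KS49 tumour 3 and IgG tumour 1, are those whose library titles end in U. Each group holds 1 such library, so the suffix and the tumour cannot be told apart. With the suffix as a covariate the median standard error of the 35 log2 fold changes was 0.26, against 0.33 without. The U libraries were mostly the highest of their group in the abundant members, so a smaller error is no test of the suffix. Among the libraries without U the summed collagen CPM averaged 11845 in 3 GrB-Fc-KS49 tumours and 15082 in 3 IgG tumours, a ratio of 0.785, and between the libraries with U the ratio was 1.12. The summed CPM of 12 fibroblast markers was 1843, 1799, 2071 and 1560.4 in GrB-Fc-KS49 tumours and 1711, 1595, 1417 and 1470.4 in IgG tumours. It ran in the order of the collagen sum within the IgG tumours but not within the GrB-Fc-KS49 tumours, where tumour 3 was highest and tumour 4 lowest. S100a4, which leukocytes also express, was the highest of the 12 markers, and without it, a choice made after its values were seen, the sum was 682, 782, 1222 and 884 in GrB-Fc-KS49 tumours and 1107, 912, 736 and 895 in IgG tumours, in the order of the collagen sum in both groups. Most single markers did not run in this order. Of the 11, Postn and Pdgfrb alone had it within the GrB-Fc-KS49 tumours. Postn also had it within the IgG tumours, and Pdgfrb did not, with 200, 207, 175 and 246 CPM there. Pi16, Fbln1 and Pdpn were highest of the GrB-Fc-KS49 tumours in tumour 1, where the collagen sum was lowest. All 12 markers were tested, 0 were under 0.1 CPM, and 3 had an unadjusted p under 0.05, all with a higher mean in GrB-Fc-KS49 tumours. Of all genes tested, 35.1% were under this threshold, 17.3% with a higher mean. The 5 leukocyte markers ran nearly the other way, with summed CPM of 337, 338, 167 and 196 in GrB-Fc-KS49 tumours and 202, 246, 278 and 249.5 in IgG tumours. The part of these cells in the collagen values was not tested.

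**Figure D3:**
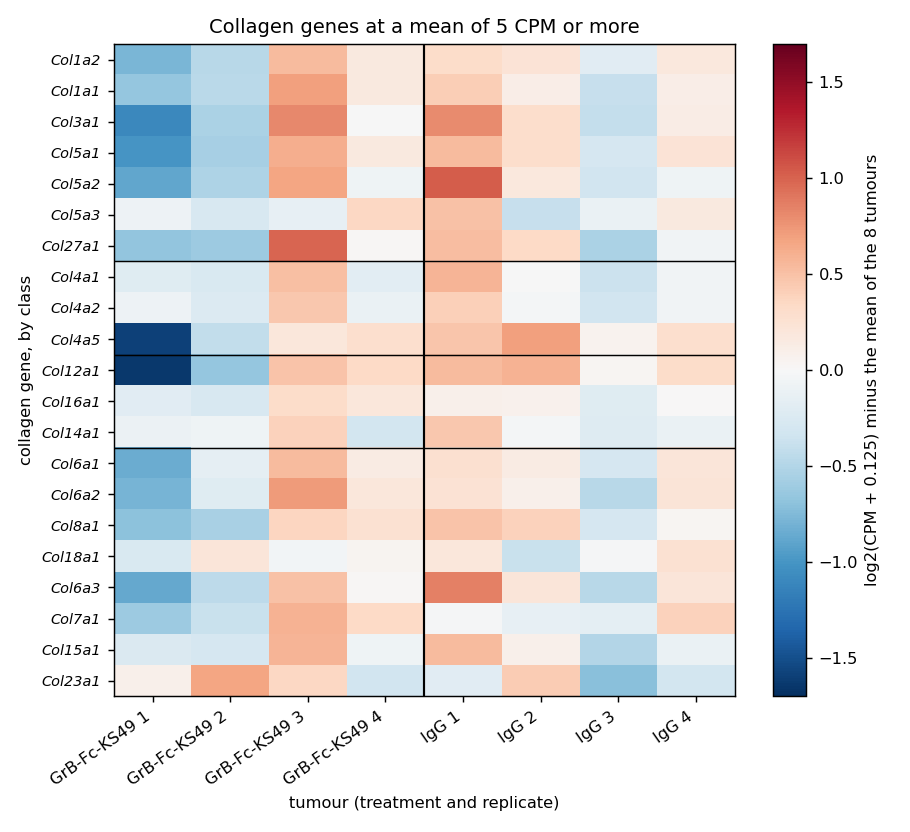
Log2 of (CPM + 0.125) minus the gene's mean over the 8 tumours (colour) for the 21 collagen genes with a mean of at least 5 CPM (rows, parted by class lines) in each tumour (columns, GrB-Fc-KS49 left of the line, IgG right). Most rows are lowest in GrB-Fc-KS49 tumour 1 and highest in GrB-Fc-KS49 tumour 3 or IgG tumour 1, the libraries whose titles end in U.

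Fibrillar genes included the most abundant members, and 9 of the 10 tested had a lower mean in GrB-Fc-KS49 tumours, with a median log2 fold change of -0.11 and 0 at an unadjusted p under 0.05. The smallest adjusted p of the class was 0.186 (Col11a2, edgeR's quasi-likelihood test, Benjamini-Hochberg). The small negative values of Col1a1, Col5a3, Col27a1 and Col11a1 took the other sign under at least 1 other setting. Per kilobase of transcript, Col1a2 stood first among all members with 996 CPM per kb over the 8 tumours, then Col1a1 with 588 and Col3a1 with 393. Col1a2 (GRCm39 chr6:4504814-4541544, plus strand) encodes the alpha 2 chain of type I collagen, the main fibre of stroma, and had 3006, 3683, 7452 and 5744 CPM in GrB-Fc-KS49 tumours, against 6391, 6050.1, 4468 and 5831 CPM in IgG tumours. Group means were 4971 ± 2023 CPM in GrB-Fc-KS49 tumours, with 5685 ± 844 CPM in IgG tumours, and it had a log2 fold change of -0.19 (95% interval -0.82 to 0.43). GrB-Fc-KS49 tumours 1 and 2 lay below all IgG tumours, tumour 3 lay above them and tumour 4 among them. Col1a1 (GRCm39 chr11:94827050-94843868, plus strand), the alpha 1 chain of the same molecule, had 2113, 2416, 5408 and 3749 CPM in GrB-Fc-KS49 tumours, against 4457, 3616, 2533 and 3599.8 CPM in IgG tumours. It showed the same order of GrB-Fc-KS49 tumours, and its log2 fold change was -0.05 (95% interval -0.75 to 0.64). Col3a1 (GRCm39 chr1:45350698-45388866, plus strand), which forms type III fibres and is known for its part in vessel walls and healing wounds, had 933, 1374, 3521 and 1999 CPM in GrB-Fc-KS49 tumours, against 3479, 2467, 1517 and 2190.5 CPM in IgG tumours. GrB-Fc-KS49 tumours 1 and 2 again lay below all IgG tumours and tumour 3 just above them, with a log2 fold change of -0.30 (95% interval -1.24 to 0.63).

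**Figure D4:**
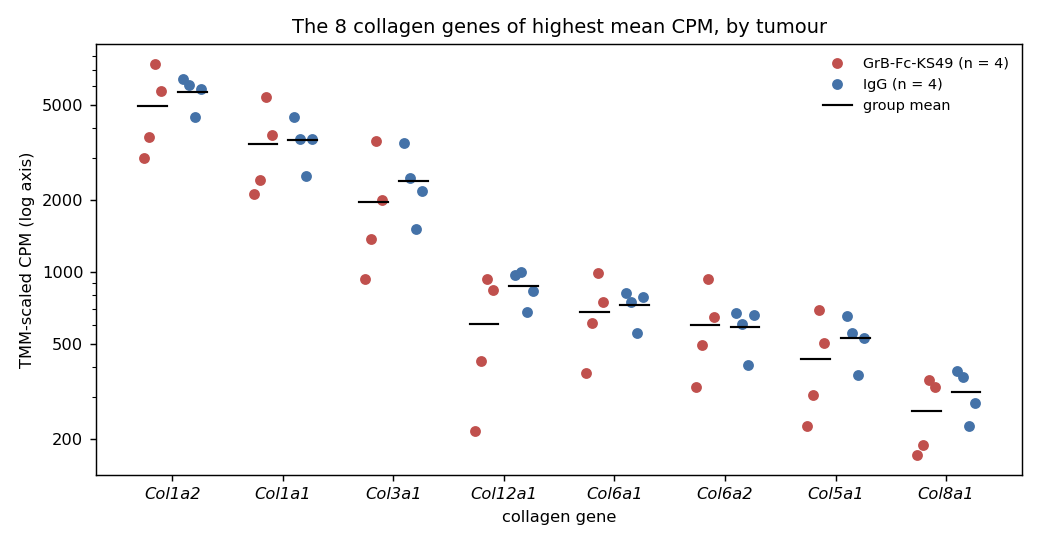
TMM-scaled CPM (y axis, log scale) of the 8 collagen genes of highest mean CPM (x axis), 1 point per tumour, GrB-Fc-KS49 left and IgG right of each gene, with the group mean as a line. The groups overlap in all 8 genes, and GrB-Fc-KS49 tumours spread more widely, from 2113 to 5408 CPM for Col1a1, against 2533 to 4457 CPM in IgG tumours.

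The minor fibrillar chains join type I and type III fibres or form the fibres of cartilage. Col5a1, a type V chain known to start fibre assembly, had 226, 304, 694 and 505 CPM in GrB-Fc-KS49 tumours, against 656, 554, 370.1 and 529 CPM in IgG tumours. Col5a2, its partner chain and the neighbour of Col3a1 on chromosome 1, had 75.4, 96.8, 222 and 133 CPM in GrB-Fc-KS49 tumours, against 285, 159, 111 and 133 CPM in IgG tumours. Col5a3, another type V chain, had 128, 112, 123 and 173 CPM in GrB-Fc-KS49 tumours, against 190.9, 104, 125 and 153 CPM in IgG tumours. Col5a1 and Col5a2 were lowest in GrB-Fc-KS49 tumour 1, and Col5a3 was not: its lowest value was in IgG tumour 2. Their log2 fold changes were -0.29, -0.38 and -0.10, each with an interval across 0. Col27a1, a chain best known from cartilage, had 6.17, 6.39, 19.6 and 10.0 CPM in GrB-Fc-KS49 tumours, against 14.2, 12.5, 6.79 and 9.50 CPM in IgG tumours. GrB-Fc-KS49 tumour 3 was the highest of all 8, and tumours 1 and 2 lay just below the IgG range. Col11a2 encodes a type XI chain of cartilage fibres and had 6.95, 5.37, 4.03 and 4.18 CPM in GrB-Fc-KS49 tumours, against 2.85, 3.70, 4.82 and 3.70 CPM in IgG tumours. It was the only tested fibrillar gene with a higher mean in GrB-Fc-KS49 tumours, with a log2 fold change of 0.45 (95% interval -0.06 to 0.95), and tumours 3 and 4 stayed within the IgG range. Col11a1, the other type XI chain, had 2.59, 1.28, 4.46 and 3.32 CPM in GrB-Fc-KS49 tumours, against 4.40, 4.18, 1.99 and 2.17 CPM in IgG tumours. Col24a1 ranged from 0.676 to 2.30 CPM in GrB-Fc-KS49 tumours and from 0.704 to 2.30 CPM in IgG tumours. Of 5 cartilage markers measured, Hapln1 and Cnmd were under 0.1 CPM in all tumours, and the summed CPM of the list was 26.4 to 39.4 in GrB-Fc-KS49 tumours and 27.9 to 39.6 in IgG tumours. Nearly all of this sum was Sox9, a transcription factor that other tissues also express, at 24.6 to 38.7 CPM in GrB-Fc-KS49 tumours and 27.4 to 38.8 CPM in IgG tumours. Comp, a cartilage matrix protein, had 1.35, 0.399, 1.45 and 0.423 CPM in GrB-Fc-KS49 tumours, against 0.399, 0.514, 0.345 and 0.384 CPM in IgG tumours, with a log2 fold change of 1.14 and an adjusted p of 0.120 by edgeR's quasi-likelihood test with Benjamini-Hochberg adjustment, high in GrB-Fc-KS49 tumours 1 and 3. Of the 3 cartilage markers tested, only Comp had a higher mean in GrB-Fc-KS49 tumours. Sox9 and Matn3 had log2 fold changes of -0.08 and -0.35. The part of cartilage in these values was not tested.

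Type IV genes did not pass the test either: 3 of 4 tested had a lower mean in GrB-Fc-KS49 tumours, and the smallest adjusted p was 0.252 (Col4a5, edgeR's quasi-likelihood test, Benjamini-Hochberg). Col4a1 and Col4a2 encode the chains of the common basement membrane network. Col4a1 had 205, 197.7, 338 and 209 CPM in GrB-Fc-KS49 tumours, against 353, 237, 183 and 228 CPM in IgG tumours. Col4a2 had 148, 135, 216 and 147 CPM in GrB-Fc-KS49 tumours, against 209.7, 154, 126 and 151 CPM in IgG tumours. In both genes GrB-Fc-KS49 tumour 3 lay apart from the other 3 GrB-Fc-KS49 tumours, inside the IgG range for Col4a1 and just above it for Col4a2. The summed CPM of 9 endothelial markers was 278, 239, 347 and 238 in GrB-Fc-KS49 tumours and 325, 248, 176 and 242 in IgG tumours, highest in the same tumour of each group, and 0 of the 9 were under 0.1 CPM. Some single markers differed from the sum. Vwf was lowest of the IgG tumours in tumour 1. Eng and Egfl7 were highest of the GrB-Fc-KS49 tumours in tumour 1. Of the 9, 3 had an unadjusted p under 0.05 by edgeR's quasi-likelihood test, all with a higher mean in GrB-Fc-KS49 tumours. Of all genes tested, 35.1% were under this threshold, 17.3% with a higher mean. In these 3, Vwf, Egfl7 and Cldn5, the groups did not overlap, against 25.7% of all genes tested. The part of vessels in the type IV values was not tested. Col4a5, a chain of the networks in kidney and smooth muscle, had 11.2, 25.4, 38.9 and 41.3 CPM in GrB-Fc-KS49 tumours, against 47.1, 55.0, 35.4 and 41.4 CPM in IgG tumours. It was lowest in GrB-Fc-KS49 tumours 1 and 2, tumours 3 and 4 lay within the IgG range, and it had a log2 fold change of -0.61 (95% interval -1.44 to 0.21). Col4a4, a chain of the kidney filter, had 0.175, 0.133, 0.155 and 0.137 CPM in GrB-Fc-KS49 tumours, against 0.121, 0.185, 0.110 and 0.310 CPM in IgG tumours, from 8 to 25 counts a library.

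**Figure D5:**
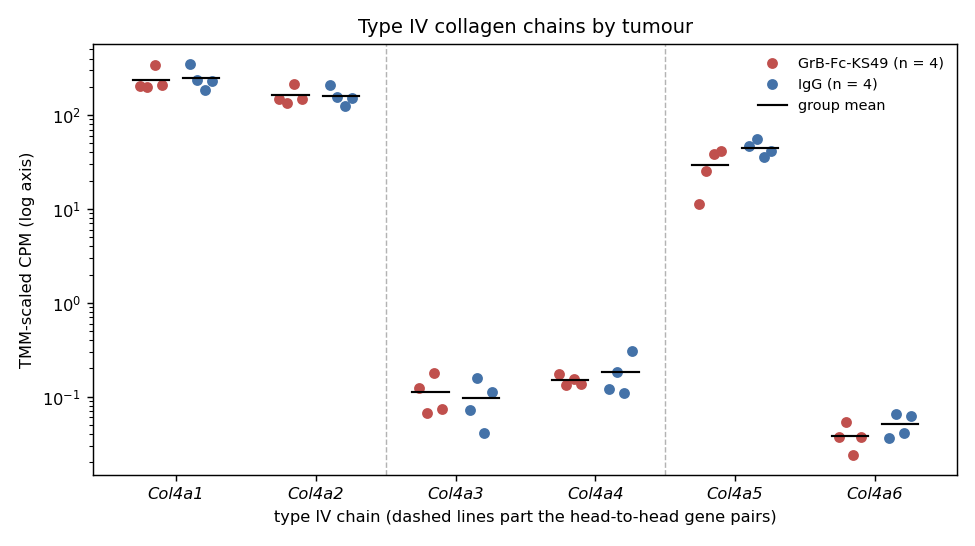
TMM-scaled CPM (y axis, log scale) of the 6 type IV chains (x axis), 1 point per tumour, GrB-Fc-KS49 left and IgG right of each chain, with the group mean as a line and dashed lines between gene pairs. Col4a1 and Col4a2 lie between 126 and 353 CPM, Col4a5 between 11.2 and 55.0 CPM, and the other 3 chains under 0.4 CPM.

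The 6 type IV genes lie in 3 pairs whose members start next to each other and run apart. In the deposited GRCm39 coordinates Col4a1 and Col4a2 on chromosome 8 overlapped by 22 bases, Col4a4 and Col4a3 on chromosome 1 were 71 bases apart, and Col4a6 and Col4a5 on the X chromosome were 1308 bases apart. Levels were near each other in the first pair (36.9 and 24.9 CPM per kb over the 8 tumours) and low in both genes of the second (0.0164 and 0.0121 CPM per kb). In the third pair Col4a5 was at 5.66 CPM per kb and Col4a6 at 0.00672 CPM per kb, on 2 to 5 counts a library, which is near the floor of 3 counts. The bases before the RefSeq starts of this unequal pair and of Col3a1 are printed 5′ to 3′ from RefSeq's GRCm38.p6 table to show what lies there. They cover chr1:45311388-45311537 on the plus strand (Col3a1), chrX:141475269-141475384 on the plus strand (Col4a5, up to the GENCODE transcript, which starts 34 bases before RefSeq's) and chrX:141474077-141474226 on the minus strand (Col4a6). Capitals mark matches on either strand to the TATA box (TATAAA), the CAAT box (CCAAT) or the GC box that SP1 is known to bind (GGGCGG).
Col3a1: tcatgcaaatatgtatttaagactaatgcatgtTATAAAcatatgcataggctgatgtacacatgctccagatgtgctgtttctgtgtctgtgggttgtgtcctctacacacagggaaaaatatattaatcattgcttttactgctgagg
Col4a5: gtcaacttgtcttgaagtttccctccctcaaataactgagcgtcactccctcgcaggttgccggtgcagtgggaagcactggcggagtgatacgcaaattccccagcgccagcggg
Col4a6: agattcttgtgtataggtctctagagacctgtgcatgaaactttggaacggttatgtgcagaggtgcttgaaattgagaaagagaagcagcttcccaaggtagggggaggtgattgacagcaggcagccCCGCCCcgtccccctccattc
Col3a1 holds TATAAA and Col4a6 holds GGGCGG on the other strand. The printed bases of Col4a5 hold none of the 3 motifs, and its GGGCGG lies in the 34 bases after them. RefSeq windows were matched for 35 of 44 members. Of these, 18 (51.4%) held GGGCGG in the 150 bases before the start, against 28.6% of all 32851 windows, 4 (11.4%) held TATAAA, against 7.57%, and 7 (20%) held CCAAT, against 24.5%. The motifs were searched on both strands and matches to CCAAT and GGGCGG can share letters. Each member had 1 window, the nearest to its GENCODE start. The 32851 windows were not filtered to 1 per gene or to protein-coding genes, so the shares are not of like sets. A match is a description of the letters only.

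FACIT genes divided by level. Col12a1, which links fibres in tissue under tension, had 215, 425, 932 and 842 CPM in GrB-Fc-KS49 tumours, against 972, 1003, 681 and 830.4 CPM in IgG tumours. GrB-Fc-KS49 tumours 1 and 2 lay below all IgG tumours, tumours 3 and 4 within their range, and the gene had a log2 fold change of -0.53 (95% interval -1.47 to 0.41). Col16a1, found in smooth muscle and skin, had 227, 214, 323 and 296 CPM in GrB-Fc-KS49 tumours, against 274, 271, 225 and 260.0 CPM in IgG tumours. GrB-Fc-KS49 tumours reached to both sides of the IgG range, and it had a log2 fold change of 0.04 (95% interval -0.28 to 0.36). Col14a1, which binds fibres in skin and tendon, had 33.1, 33.8, 46.5 and 28.6 CPM in GrB-Fc-KS49 tumours, against 48.7, 34.7, 30.5 and 32.8 CPM in IgG tumours. Col9a3, a type IX chain that coats cartilage fibres, had 1.95, 1.505, 1.21 and 1.02 CPM in GrB-Fc-KS49 tumours, against 0.556, 0.699, 0.897 and 1.25 CPM in IgG tumours. Means were 1.42 ± 0.406 CPM in GrB-Fc-KS49 tumours, with 0.851 ± 0.302 CPM in IgG tumours (SD, n = 4 each), and only GrB-Fc-KS49 tumours 3 and 4 lay within the IgG range. Col9a3 had the smallest adjusted p of all collagens, 0.127 by edgeR's quasi-likelihood test with Benjamini-Hochberg adjustment, and a log2 fold change of 0.74 (95% interval 0.04 to 1.44). Col20a1, a FACIT chain, had 2.68, 2.20, 0.904 and 1.67 CPM in GrB-Fc-KS49 tumours, against 0.919, 1.05, 1.55 and 1.19 CPM in IgG tumours. Tumours 1 and 2 of the GrB-Fc-KS49 group were the highest and tumour 3 the lowest of all 8.

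Type VI collagen forms beaded microfibrils around cells, and its 3 main chains were among the abundant members. Col6a1 had 378, 613, 989.6 and 752 CPM in GrB-Fc-KS49 tumours, against 819, 749, 557 and 786 CPM in IgG tumours. Col6a2 had 330.0, 494, 936 and 648 CPM in GrB-Fc-KS49 tumours, against 673, 605, 409 and 662 CPM in IgG tumours. Col6a3 had 65.5, 88.2, 169 and 122 CPM in GrB-Fc-KS49 tumours, against 217, 138, 86.3 and 139 CPM in IgG tumours. All 3 were lowest in GrB-Fc-KS49 tumour 1. Their log2 fold changes were -0.09, 0.04 and -0.38, and the widest interval was that of Col6a3, -1.17 to 0.40. Col6a4, Col6a5 and Col6a6, a row of genes on chromosome 9 that encode alternative type VI chains, were scarce. Col6a4 had 0.601, 0.692, 0.369 and 0.373 CPM in GrB-Fc-KS49 tumours, against 0.254, 0.211, 0.345 and 0.446 CPM in IgG tumours, and only GrB-Fc-KS49 tumours 3 and 4 lay within the IgG range. Col6a5 reached at most 0.226 CPM in GrB-Fc-KS49 tumours, against at most 0.254 CPM in IgG tumours. Col6a6 reached at most 1.33 CPM in GrB-Fc-KS49 tumours, against at most 1.12 CPM in IgG tumours. Col28a1, whose protein shares the von Willebrand type domains of type VI chains, ranged from 1.05 to 7.22 CPM in GrB-Fc-KS49 tumours and from 1.10 to 3.31 CPM in IgG tumours.

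The remaining classes held genes of vessels, skin and cell surfaces. Col8a1, a short-chain collagen of vessel walls and cornea, had 171.005, 188.8, 354 and 329.6 CPM in GrB-Fc-KS49 tumours, against 386, 362, 227 and 283 CPM in IgG tumours. GrB-Fc-KS49 tumours 1 and 2 lay below all IgG tumours, and the others within their range. Col8a2 ranged from 1.01 to 3.89 CPM in GrB-Fc-KS49 tumours and from 1.16 to 2.85 CPM in IgG tumours. Col10a1, a marker of hypertrophic cartilage, ranged from 0.519 to 2.40 CPM in GrB-Fc-KS49 tumours and from 0.538 to 1.86 CPM in IgG tumours. The multiplexins Col18a1 and Col15a1 sit in basement membranes, and a fragment of the Col18a1 protein is endostatin, an inhibitor of vessel growth. Col18a1 had 151, 210.0, 175 and 187 CPM in GrB-Fc-KS49 tumours, against 207, 139, 178 and 216 CPM in IgG tumours. It did not follow the tumour order of the fibrillar genes: its highest GrB-Fc-KS49 tumour was tumour 2. Col15a1 had 49.7, 48.3, 87.7 and 55.9 CPM in GrB-Fc-KS49 tumours, against 85.6, 62.6, 41.6 and 54.5 CPM in IgG tumours. Col7a1, the anchoring fibril that ties skin to its base, had 74.9, 88.4, 174 and 146 CPM in GrB-Fc-KS49 tumours, against 114, 105, 103 and 151 CPM in IgG tumours, with a log2 fold change of 0.03 (95% interval -0.59 to 0.66).

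Transmembrane collagens gave the largest fold change of the family, and it came from 1 tumour. Col17a1, the hemidesmosome collagen of basal keratinocytes, had 0.789, 27.3, 1.48 and 1.09 CPM in GrB-Fc-KS49 tumours, against 1.26, 1.24, 1.35 and 1.34 CPM in IgG tumours. GrB-Fc-KS49 tumour 2 alone was high, and the other 3 lay between 0.789 and 1.48 CPM, around the narrow IgG range. Over all tumours Col17a1 had a log2 fold change of 2.56 (95% interval -0.06 to 5.17), and without GrB-Fc-KS49 tumour 2 its log2 fold change was -0.19. That tumour is the one with the high epidermal sum: 7 of 8 epidermal markers were measured, 4 were tested, and all 4 had a higher mean in GrB-Fc-KS49 tumours. The part of skin in the Col17a1 value was not tested beyond leaving that tumour out. Col23a1, a transmembrane collagen, had 5.15, 7.72, 6.17 and 3.84 CPM in GrB-Fc-KS49 tumours, against 4.21, 6.54, 2.91 and 3.86 CPM in IgG tumours. Its highest tumour was also GrB-Fc-KS49 tumour 2, and the groups overlapped, with a log2 fold change of 0.39 (95% interval -0.26 to 1.03). Col13a1, known from the nerve-muscle junction, ranged from 2.54 to 3.71 CPM in GrB-Fc-KS49 tumours and from 2.30 to 3.32 CPM in IgG tumours.

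The 9 members that were not tested were Col2a1, Col4a3, Col4a6, Col9a1, Col9a2, Col19a1, Col22a1, Col25a1 and Col26a1, and together they summed to 1.21, 0.679, 1.02 and 0.435 CPM in GrB-Fc-KS49 tumours, against 0.387, 0.593, 0.469 and 0.682 CPM in IgG tumours. Col22a1, a FACIT of the muscle-tendon junction, had 29, 2, 0 and 1 counts in GrB-Fc-KS49 tumours, against 0, 0, 2 and 2 counts in IgG tumours. Col19a1, a FACIT found in muscle and brain, had 25, 0, 2 and 0 counts in GrB-Fc-KS49 tumours, against 3, 2, 2 and 0 counts in IgG tumours. Both were above the floor of 3 counts only in GrB-Fc-KS49 tumour 1, the tumour with the high muscle sum, in which all 8 muscle markers were measured and 0 were under 0.1 CPM. The part of muscle in these counts was not tested. Col9a2, another type IX chain, had 10, 20, 46 and 4 counts in GrB-Fc-KS49 tumours, against 2, 3, 3 and 15 counts in IgG tumours. Col2a1, the main cartilage collagen, had 1 to 9 counts in GrB-Fc-KS49 tumours and 3 to 7 in IgG tumours. With no low-count filter all 44 members were tested, and 0 of these 9 had an unadjusted p under 0.05 by edgeR's quasi-likelihood test, the smallest being 0.0654 (Col9a2). Col9a2 also passed the filter without GrB-Fc-KS49 tumour 4, with an unadjusted p of 0.0250 and an adjusted p of 0.0843, and without IgG tumour 4, with an unadjusted p of 0.0138 and an adjusted p of 0.119 (edgeR, Benjamini-Hochberg).

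Ratios of chains that join in 1 molecule differed in how even they were across the 8 tumours. Per kilobase, Col1a1 over Col1a2 was 0.634, 0.592, 0.655 and 0.589 in GrB-Fc-KS49 tumours, against 0.629, 0.539, 0.511 and 0.557 in IgG tumours, and its highest value was 1.28 times its lowest. Col4a1 over Col4a2 was 1.35, 1.43, 1.52 and 1.39 in GrB-Fc-KS49 tumours, against 1.64, 1.498, 1.42 and 1.47 in IgG tumours, a range of 1.22 times. Col6a1 over Col6a2 ranged from 1.199 to 1.41 in GrB-Fc-KS49 tumours and from 1.35 to 1.55 in IgG tumours, a range of 1.29 times. Less even were Col5a1 over Col5a2, with a range of 1.72 times, and Col6a3 over Col6a1, with 1.84 times. The summed level of Col1a1 and Col1a2, by comparison, ranged over 2.51 times. Other ratios set genes of different molecules against each other. Col3a1 over Col1a1 was 0.471, 0.606, 0.694 and 0.568 in GrB-Fc-KS49 tumours, against 0.832, 0.727, 0.638 and 0.649 in IgG tumours, where GrB-Fc-KS49 tumours 1, 2 and 4 lay below all IgG tumours and tumour 3 among them. Col12a1 over Col1a1 was 0.0524, 0.0906, 0.0888 and 0.116 in GrB-Fc-KS49 tumours, against 0.112, 0.143, 0.138 and 0.119 in IgG tumours, where only GrB-Fc-KS49 tumour 4 reached the IgG range. Col4a5 over Col4a1 varied most among the 12 ratios formed, by 4.24 times, from 0.0555 to 0.200 in GrB-Fc-KS49 tumours and from 0.135 to 0.235 in IgG tumours. Ratios were chosen with levels known and are given with no test.

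Transcript length and GC content differed between the groups in their relation to the values. Across 14508 protein-coding genes, the Spearman correlation of a gene's value, relative to its mean over the tumours, with its length was -0.42 to -0.08 in GrB-Fc-KS49 tumours and 0.32 to 0.38 in IgG tumours. With its GC content the correlation was 0.07 to 0.22 in GrB-Fc-KS49 tumours and -0.28 to -0.16 in IgG tumours. Genes are not independent replicates, and the values of 1 gene over the 8 tumours share its mean. Tested collagens have long transcripts, with a median of 6048 bases against 3078 bases for protein-coding genes tested and 2596 bases for all genes tested. Their median GC content was 56.1%, against 50.3% for protein-coding genes tested and 49.7% for all genes tested. With smooth trends in length and GC content removed from each library, the median log2 fold change was 0.08 over the 35 collagens and -0.007 over the 14508 genes. Both trends were removed together, so their parts cannot be told apart. In that setting 1 collagen (Col17a1) had an unadjusted p under 0.05, against 25% of the 14508 genes.

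Genes that build, bind and cut collagen did not pass the test either, and the smallest adjusted p among them was 0.0619 (edgeR's quasi-likelihood test, Benjamini-Hochberg). Of 35 tested genes of collagen biosynthesis and processing, 7 (20%) had an unadjusted p under 0.05, against 35.1% of all genes, 2 with a higher mean in GrB-Fc-KS49 tumours (Ppib, Pcolce) and 5 with a lower one (Tmem131, Mia3, Loxl4, Sec23a, Lox). Without both U libraries 4 had, all lower, against 27% of all genes, and with length and GC trends removed 3 had, all lower, against 25%, so the 2 higher calls were lost in both. Without GrB-Fc-KS49 tumour 3, 11 had, 2 higher and 9 lower, against 36.7% of all genes. The median log2 fold change of the list was -0.07. Tmem131, known to help recruit collagen for secretion, had 35.7, 56.5, 55.6 and 68.5 CPM in GrB-Fc-KS49 tumours, against 91.4, 93.8, 89.3 and 79.7 CPM in IgG tumours. Mia3, which loads collagen into transport vesicles, had 102, 107.9, 128 and 125 CPM in GrB-Fc-KS49 tumours, against 154, 142, 141 and 139 CPM in IgG tumours. Ppib, the prolyl isomerase cyclophilin B of the collagen-modifying complex, had 305, 289, 316 and 297 CPM in GrB-Fc-KS49 tumours, against 259.5, 271, 252 and 259 CPM in IgG tumours. Groups did not overlap in any of these 3 genes. Loxl4, a collagen crosslinking oxidase, had 17.2, 32.7, 27.6 and 40.3 CPM in GrB-Fc-KS49 tumours, against 58.4, 51.9, 45.8 and 42.1 CPM in IgG tumours, also without overlap, and a log2 fold change of -0.75 ± 0.24 (SE). Groups did not overlap in 6 of the 35 genes, against 25.7% of all genes tested.

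Of 11 tested collagen receptors, 3 (27.3%) had an unadjusted p under 0.05, against 35.1% of all genes, 2 lower (Ddr2, Itgb1) and 1 higher (Adgrg1) in GrB-Fc-KS49 tumours. Ddr2, a receptor tyrosine kinase for fibrillar collagen, had 209, 267, 282 and 321 CPM in GrB-Fc-KS49 tumours, against 392, 386, 352 and 371 CPM in IgG tumours. Itgb1, the beta subunit of the collagen-binding integrins, had 817, 1146, 1214 and 1298 CPM in GrB-Fc-KS49 tumours, against 1505, 1542, 1410.3 and 1374 CPM in IgG tumours. All GrB-Fc-KS49 tumours lay below all IgG tumours in both, the 2 of 11 receptors whose groups did not overlap, against 25.7% of all genes tested. Adgrg1, an adhesion receptor that binds type III collagen, had 8.09, 10.3, 10.98 and 4.76 CPM in GrB-Fc-KS49 tumours, against 6.34, 5.27, 4.18 and 4.82 CPM in IgG tumours. Itga2, the integrin alpha 2 subunit, had 4.60, 9.60, 12.5 and 20.6 CPM in GrB-Fc-KS49 tumours, against 24.4, 29.8, 18.7 and 17.0 CPM in IgG tumours. GrB-Fc-KS49 tumour 4 alone lay within the IgG range for Adgrg1, and the groups overlapped for Itga2. Of 14 tested genes of collagen breakdown, 2 (14.3%) had an unadjusted p under 0.05, against 35.1% of all genes, Prep lower and Ctsb higher in GrB-Fc-KS49 tumours. Prep, a peptidase that cuts proline-containing peptides, had 101, 129.7, 123 and 143.2 CPM in GrB-Fc-KS49 tumours, against 168, 181, 172 and 161.7 CPM in IgG tumours. Ctsb, the lysosomal protease cathepsin B, had 1663, 1445, 1274 and 1104 CPM in GrB-Fc-KS49 tumours, against 1213, 1139, 1101 and 1036 CPM in IgG tumours. Groups did not overlap for Prep alone of the 14 genes, against 25.7% of all genes, and overlapped for Ctsb. Mmp8, the collagenase of neutrophils, averaged 1.57 ± 1.09 CPM in GrB-Fc-KS49 tumours, with 0.790 ± 0.108 CPM in IgG tumours, and Mmp13, a main interstitial collagenase of rodents, averaged 22.0 ± 15.7 CPM in GrB-Fc-KS49 tumours, with 13.2 ± 4.51 CPM in IgG tumours.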

How the data were processed

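Poly(A) RNA was made into stranded libraries with dUTP in the second strand, per the labels' protocols. The submitters' processing notes name bcl2fastq 2.19.1.403, STAR and the GRCm39 build. The sources used here give no counter, annotation release or use of strand, so reads of a gene and of an overlapping opposite gene (Col4a1 and Col4a2) cannot be told apart. The authors deposited estimated counts per gene and CPM (counts scaled to a library of 1000000), and 46.0% to 47.8% of the estimated counts per library were whole numbers.

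Estimated counts were rounded, filtered with filterByExpr and scaled by TMM, and the groups were compared with edgeR 4.0.16 (robust quasi-likelihood F test, R 4.3.3, Benjamini-Hochberg over 19718 genes, adjusted p under 0.05). Log2 fold changes used a prior count of 0.125, and intervals are 95%. The test was tested on simulated data, where it recovered 84.1% of 4-fold, 41.3% of 2-fold and 14.9% of 1.5-fold changes. Counts were drawn for each gene on its own, without the shared order of tumours seen here, so these shares need not hold. Transcript lengths came from GENCODE M21 for all 44 members. Alternatives were other scalings and filters, DESeq2 1.42.0, limma 3.58.1 voom with or without weights per sample, limma on log2 of the deposited CPM plus 1 or plus 0.25, leaving out each library, the title suffix U of 2 libraries, and length and GC trends removed with mgcv 1.9.3. No pair of libraries held identical counts. Groups follow the treatment label, and replicate numbers follow accession order and only name tumours. Members and lists were chosen with earlier results of these data known. By rule, values in every library were given, per class, for up to 8 members at a mean of at least 5 CPM plus the 2 others of smallest unadjusted p, and for up to 4 genes of smallest p per related list. Outside this rule, Sec23a, Pcolce and Lox were named, and counts in every library were given for Col22a1, Col19a1 and Col9a2, after their values were seen.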

Additional observations from a re-analysis of the deposited data

Results flagged for a closer look

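Each group of 4 tumours was searched for a tumour far from the others, by the gap to its nearest neighbour over the group's whole range, against Dixon's 95% critical value. Of 66 groups of values, 4 held such a tumour, and chance flags about 1 in 20 groups. The GrB-Fc-KS49 tumours held all 4.

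Col4a1 was at 338 CPM in GrB-Fc-KS49 tumour 3, with the other 3 GrB-Fc-KS49 tumours at 197.7 to 209 CPM, a gap of 0.920 of the range. Col4a2 was at 216 CPM in the same tumour, with the others at 135 to 148 CPM, a gap of 0.831. The summed type IV level, which these genes make up nearly whole, was 593 CPM there and 358 to 397 CPM in the others, a gap of 0.835. That library and IgG tumour 1, the highest IgG tumour in both genes, are those whose titles end in U. With the suffix as a covariate the standard error of the log2 fold change was 0.091 for Col4a1, against 0.24 without it, and 0.086 for Col4a2, against 0.19. Both genes were flagged for a high value in a U library, so their smaller error is no test of the suffix. Over all 35 tested members the median standard error was 0.26 with the covariate, against 0.33 without it. Of these 35, 17 were highest in GrB-Fc-KS49 tumour 3 and 8 in IgG tumour 1, so this drop is no test either. As a sum, endothelial markers were also highest of the GrB-Fc-KS49 tumours in tumour 3, at 347 CPM against 238 to 278 CPM. Eng and Egfl7 were highest in tumour 1, and the part of vessels was not tested. Col17a1 was at 27.3 CPM in GrB-Fc-KS49 tumour 2, with the others at 0.789 to 1.48 CPM, a gap of 0.974.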

How the results depend on the processing

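No collagen gene had an adjusted p under 0.05 in any of 20 settings (smallest over all members tested 0.0761, Col20a1 without GrB-Fc-KS49 replicate 3, by edgeR's quasi-likelihood test with Benjamini-Hochberg adjustment). The median log2 fold change of the tested members was -0.25 without GrB-Fc-KS49 replicate 3 and 0.15 without IgG replicate 1, the ends of the range over left-out libraries, and the ratio of summed collagen CPM was 0.727 to 1.01, and 0.785 without both U libraries, a setting chosen for the sum after seeing the data. The number of members at an unadjusted p under 0.05, 1 as reported, was 3 with upper quartile scaling (Col11a2, Col9a3, Col6a4), 3 with the U suffix as covariate (Col11a2, Col9a3, Col20a1), 0 by voom with sample weights, and 0 to 5 with 1 library left out. The number whose groups do not overlap, 0 as reported against 25.7% of all genes tested, was 0 to 2 with 1 library left out. Over all genes, where edgeR called 0, DESeq2 called 4708, voom 1, voom with sample weights 1267, and edgeR 4952 at an adjusted p under 0.10 and 0 to 3447 with 1 library left out (GrB-Fc-KS49 tumour 4 for the highest count, and 1260 without tumour 1). Of the biosynthesis list, 4 genes were called at an unadjusted p under 0.05 without both U libraries (0 higher), 3 (0 higher) with length and GC trends removed, and 5 to 11 with 1 library left out, the most without GrB-Fc-KS49 replicate 3. The receptor list gave 1 to 4 with 1 library left out, the fewest without GrB-Fc-KS49 replicate 2. The degradation list gave 1 by voom with or without sample weights, with the U suffix as covariate and with trends removed, 4 without both U libraries, and 1 to 4 with 1 library left out, the most without GrB-Fc-KS49 replicate 3. The causes were not tested.

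Of the 28 members given with CPM in every library by rule, 13 kept the sign of their log2 fold change in all settings run. The other 15, mostly near 0, took the other sign in some. These were Col1a1 0.018, Col5a3 0.026, Col27a1 0.077, Col11a1 0.14, Col4a1 0.038, Col14a1 0.18, Col18a1 0.073 and Col15a1 0.046 with trends removed, Col1a1 0.0077, Col27a1 0.038, Col14a1 0.014, Col18a1 0.020 and Col15a1 0.045 with upper quartile scaling, Col5a3 0.11, Col4a2 -0.0063, Col16a1 -0.038, Col6a2 -0.19, Col18a1 0.038 and Col7a1 -0.22 without both U libraries, Col6a2 -0.022 and Col7a1 -0.0085 with the U suffix as covariate, Col6a2 -0.039 and Col7a1 -0.034 by voom, Col18a1 0.041 by voom with sample weights, Col6a2 -0.017, Col7a1 -0.011 and Col15a1 0.010 on log2(CPM + 1) with -0.017, -0.012 and 0.011 for the same genes on log2(CPM + 0.25), Col27a1 0.0091 and Col15a1 0.019 with at least 1 CPM in 4 libraries, and Col4a2 -0.0087 with no low-count filter. With 1 library left out the ranges were Col1a1 -0.37 to 0.12, Col5a3 -0.25 to 0.094, Col27a1 -0.52 to 0.17, Col11a1 -0.41 to 0.14, Col4a1 -0.30 to 0.16, Col4a2 -0.16 to 0.19, Col4a4 -0.45 to 0.13, Col16a1 -0.069 to 0.15, Col14a1 -0.21 to 0.14, Col6a1 -0.33 to 0.11, Col6a2 -0.26 to 0.24, Col18a1 -0.15 to 0.062, Col7a1 -0.20 to 0.21, Col15a1 -0.25 to 0.21, Col17a1 -0.19 to 2.94. Members at a few counts a library are limited by depth. No paired analysis was possible because the labels give the groups no shared replicate numbers.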
